A study of Homo sapiens with 16 samples.

Results

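The results describe how TAK-981 and dexamethasone (Dex) acted together on each gene of MM1S cells, and where their joint effect departed from the sum of their separate effects. MM1S is a human multiple myeloma cell line that the labels call sensitive to glucocorticoids, and MM1R is the glucocorticoid-resistant line it was compared with. RNA was sequenced after 48 h in 4 groups of each line: vehicle (Veh), 0.1 µM TAK-981 alone (TAK), 1 µM Dex alone (Dex) and both agents at those doses (Com), with 2 libraries a group. The 8 MM1S libraries of the 16 in all gave the main values and the 8 MM1R libraries served as comparator. No genes were selected: every gene with enough counts was kept, which left 14215 of the 23354 genes in the table.

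The quantity followed for each gene is the interaction, the log2 change that TAK-981 caused in the presence of Dex minus the log2 change it caused without Dex. An interaction of 0 means that the combination reached the level that the log2 changes of the single agents add up to, called the additive level here. A positive interaction means that the combination lay above the additive level and a negative one that it lay below. For a pair of rises a positive value is more than additive, and for a pair of falls a positive value is less than additive.

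TAK-981 blocks the enzyme that activates SUMO, a small protein that is attached to transcription factors and chromatin proteins and often dampens their activity. Dex binds the glucocorticoid receptor, which moves to the nucleus, induces genes such as FKBP5 and TSC22D3, and lowers growth, lipid synthesis and inflammatory genes, and it kills sensitive myeloma cells. The glucocorticoid receptor is itself a SUMO target, and type I interferon genes are known to rise when SUMO attachment is blocked.

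Total counts ran from 15707587 to 20644510 in MM1S, and duplicate libraries differed by more than sampling noise in every group. Nothing in the labels says that the duplicates came from separate cultures, so the p-values measure the spread between libraries, which may be technical. Of 9 plasma cell markers, 8 exceeded 10 CPM (counts per 1000000 counts) in every MM1S library, and CD38 was the exception, at 6.74 and 7.31 CPM in Dex. Summed markers of other cell types stayed at or under 18.3 CPM in each MM1S library, with the stromal and epithelial list at 10.8 to 14 in Veh, 15.6 to 15.7 in TAK, 2.23 to 2.67 in Dex and 4.21 to 5.77 in Com. Of the other marker lists, erythroid and platelet genes summed to 5.55 to 18.3 CPM, T and NK cell genes to 2.41 to 4.87 and myeloid genes to 1.69 to 4.67.

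In MM1S the combination departed from additivity in 2125 of 14215 genes, or 14.9% (adjusted p under 0.05, edgeR quasi-likelihood test). Of these, 777 lay above the additive level (5.47% of genes tested) and 1348 below it (9.48%). The departures were mostly modest: the median size among called genes was 0.517 on the log2 scale, and 259 reached 1, of which 159 were above and 100 below the additive level. The interaction kept 1 sign whichever library of each group was used in 37.5% of all genes tested. Over all genes the median interaction was -0.03 and the median standard error 0.15. Scaling by library size alone moved the median of all genes by 0.07 and turned the split to 1033 above and 908 below, so single directions near 0 depend on that choice. With the replicate number as a block the count was 3579 (1383 above and 2196 below), and with only the MM1S libraries in the fit it was 779. The number of calls also rested on single libraries, at 1044 without Veh replicate 1, 1348 without Veh replicate 2, 1102 without Dex replicate 2, 1108 without Com replicate 1 and 3724 without TAK replicate 1.

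**Figure D1:**
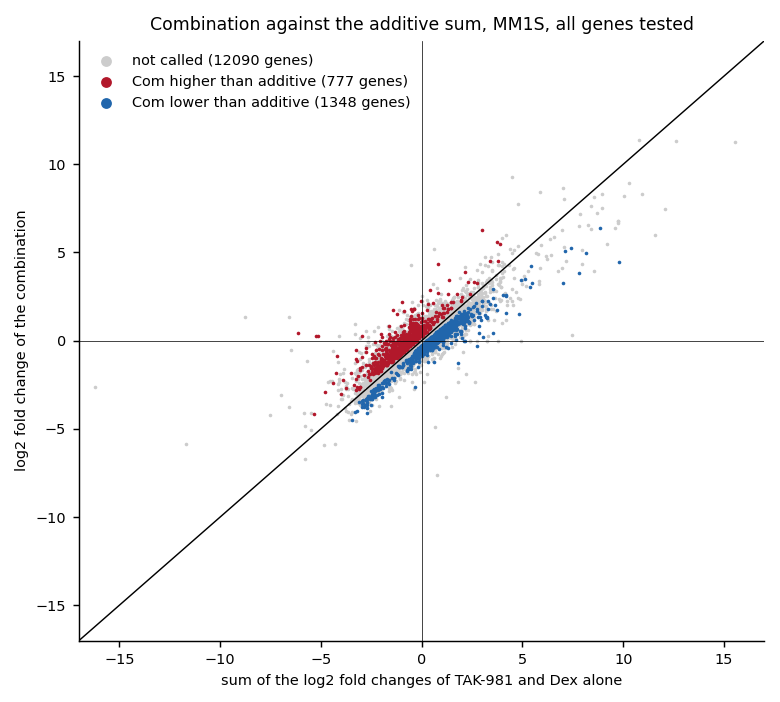
Each point is a gene tested in MM1S, placed by the sum of the log2 fold changes of TAK-981 alone and Dex alone (x axis) and by the log2 fold change of the combination (y axis), all against Veh; points on the diagonal are additive. The 777 genes called above the additive level (red) lie mostly where the sum is negative and the 1348 called below it (blue) mostly where it is positive. The Veh, TAK and Dex libraries enter both the x axis and the calls, so part of this split is built in.

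Genes were then sorted by what each agent did alone, and the counts are descriptions. The Veh, TAK and Dex libraries enter both the single-agent changes and the interaction, with opposite signs. Noise in these libraries therefore favours the less than additive form. TAK-981 alone raised 25.2% and lowered 23.7% of the genes tested, and Dex alone raised 20.8% and lowered 21.5%. Both agents raised 1483 genes, and 557 of them were called for the interaction, 543 below the additive level and 14 above it. Both agents lowered 1810 genes, of which 457 were called, 364 above the additive level (a smaller joint fall) and 93 below it (a larger joint fall). Less than additive was thus the form of 907 of the 1014 called genes that both agents moved the same way. Of the 543 genes with a smaller joint rise, 406 did not pass the larger of the single-agent levels in the combination. In 174 the combination lay even under the lower of them. Both counts compare estimates only, without a test of the combination against either agent. Among 644 genes that the agents moved in opposite directions, 77 were called above and 79 below the additive level. Genes that only Dex moved gave 136 calls above and 222 below, and genes that only TAK-981 moved gave 96 above and 248 below. The remaining 5175 genes passed the test for neither agent alone, and 253 of them were called for the interaction (90 above, 163 below), 203 with a combination level that differed from Veh.

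Picking the genes in 1 replicate and reading them in the other kept the smaller joint rise but not always the smaller joint fall. This alternative was added after the data had been seen. Here raised and lowered mean a log2 change of at least 0.5 in that replicate, without a test. Only genes with a mean log2 CPM of at least 3 entered, so these are not the classes counted above. Genes that both agents raised in replicate 1 had a median departure of -0.34 in replicate 2 (253 genes, 75.5% below 0). Those chosen in replicate 2 had -0.34 in replicate 1 (278 genes, 84.9% below 0). Over all 9695 genes at that level the medians were -0.06 and -0.05, with 55.4% and 58.1% below 0. Genes that both agents lowered gave 0.02 in replicate 2 (615 genes, 49.1% below 0) and 0.18 in replicate 1 (604 genes, 32.5% below 0). The median departure of jointly lowered genes was therefore close to that of all genes in the first of these readings.

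**Figure D2:**
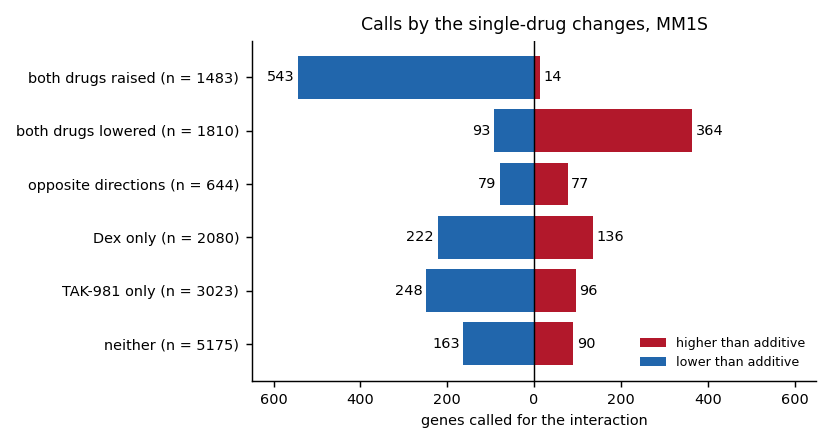
Bars give the number of MM1S genes called above (red, to the right) and below (blue, to the left) the additive level, by what each agent did alone; n is the number of genes tested in each class. Genes that both agents raised were called below the additive level in 543 cases and above it in 14, and genes that both agents lowered were called above it in 364 and below it in 93.

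Several genes that Dex induced went higher still in the combination although TAK-981 alone did not raise them. FKBP5, which encodes a chaperone that holds the glucocorticoid receptor in check and is a standard readout of its activity, measured 68.6 and 69 CPM in Veh, 40.3 and 43.7 in TAK, 1720 and 1600 in Dex and 3020 and 3110 in Com. TAK-981 thus lowered FKBP5 on its own and raised it on top of Dex, and no 2 groups overlapped. The additive level for FKBP5 was 1020 CPM and the interaction 1.59 ± 0.09 (SE, adjusted p = 5.71e-09), with the combination 0.88 above Dex on the log2 scale. The gene lies at chromosome 6, 35541362 to 35696397, minus strand, in hg19, where LOC285847 overlaps it.

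CXCR4, a chemokine receptor that retains plasma cells in the marrow, stood at 25 and 23 CPM in Veh, 27.4 and 27.2 in TAK, 222 and 216 in Dex and 535 and 551 in Com. Alone, only Dex passed the test for CXCR4, and both Com libraries lay above both Dex libraries. Its interaction was 1.13 ± 0.10 (SE, adjusted p = 5.94e-07). PLXNA1, a semaphorin co-receptor, read 77.1 and 78.4 CPM in Veh, 68.6 and 80.2 in TAK, 118 and 120 in Dex and 328 and 352 in Com. TAK overlapped Veh for PLXNA1, and the combination exceeded the additive 114 CPM by 1.58 ± 0.10 on the log2 scale. ZBTB16, a zinc finger repressor induced by glucocorticoids in many cells, measured 0.987 and 1.54 CPM in Veh, 0.415 and 0.669 in TAK, 38.7 and 37.4 in Dex and 60.2 and 62.7 in Com. Its interaction of 1.89 ± 0.34 (SE) rested on TAK and Veh levels of about 1 CPM. CBLN2, a secreted synapse organiser, rose with each agent, from 23.7 and 22.5 CPM in Veh to 43.2 and 40.8 in TAK and 30.1 and 33.3 in Dex, and reached 148 and 146 in Com. It was among the 14 genes with a joint rise beyond additive, with an interaction of 1.35 ± 0.11 (SE).

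**Figure D3:**
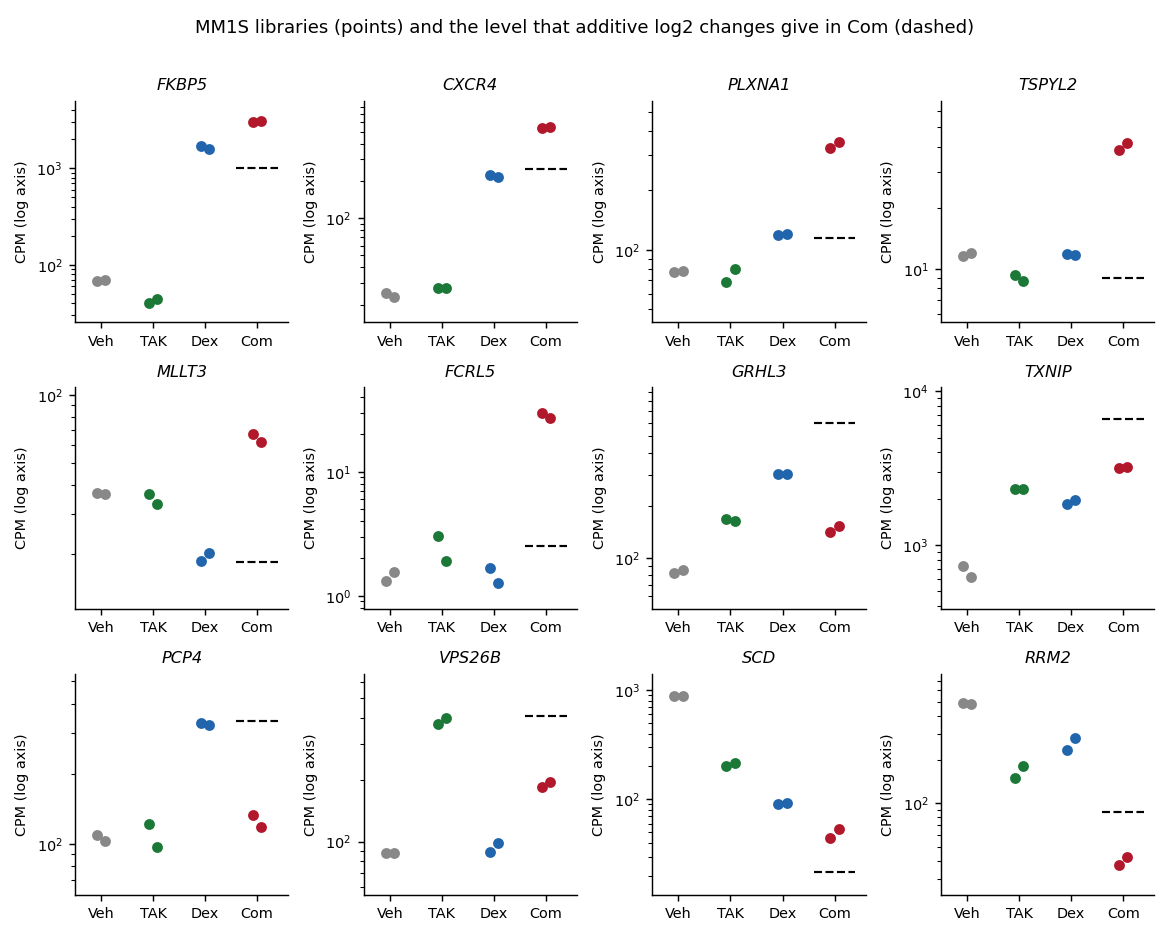
CPM on log axes of 12 genes in the 8 MM1S libraries (points, 2 a group), with the additive level for the combination as a dashed line. Com lies above the dashed line for FKBP5, CXCR4, PLXNA1, TSPYL2, MLLT3, FCRL5 and SCD and under it for GRHL3, TXNIP, PCP4, VPS26B and RRM2.

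In a further group the combination stood above Veh and above both single agents. TSPYL2, a chromatin-associated inhibitor of cell proliferation, measured 11.5 and 11.9 CPM in Veh, 9.28 and 8.7 in TAK, 11.8 and 11.7 in Dex and 38.5 and 41.8 in Com. Only the Com libraries stood clear above Veh. The interaction was 2.16 ± 0.13 (SE, adjusted p = 5.97e-09) in MM1S and 0.10 ± 0.14 in MM1R. MLLT3, a reader of acylated histones in the super elongation complex, stood at 36.8 and 36.6 CPM in Veh, 36.6 and 32.9 in TAK, 18.6 and 20.1 in Dex and 67.4 and 62.3 in Com. Dex alone lowered MLLT3 and Dex with TAK-981 raised it, with an interaction of 1.82 ± 0.11 (SE). LPCAT2, a lysophospholipid acyltransferase whose locus CAPNS2 overlaps, went the same way, with 7.33 and 6.97 CPM in Veh, 10.5 and 7.88 in TAK, 3.73 and 3.98 in Dex and 23.2 and 26 in Com.

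FCRL5, an Fc receptor-like surface protein of B and plasma cells, was low in 3 groups, at 1.32 and 1.54 CPM in Veh, 3.01 and 1.9 in TAK and 1.66 and 1.26 in Dex, and reached 29.9 and 27.1 CPM in Com. TAK-981 alone raised FCRL5 by 0.78 on the log2 scale (adjusted p = 0.0172). Its interaction was 3.50 ± 0.35 (SE, adjusted p = 2.66e-06). SOCS2, a feedback inhibitor of cytokine signalling, read 13.8 and 10.5 CPM in Veh, 9.28 and 8.44 in TAK, 11.2 and 11.2 in Dex and 29.7 and 28.1 in Com. The combination was the only SOCS2 group above Veh, and SOCS2-AS1 shares its locus. ING1, a histone reader linked to p53, was lowered a little by each agent, from 23 and 22.9 CPM in Veh to 18 and 19.7 in TAK and 18.2 and 18.8 in Dex, and rose to 43.2 and 46.1 in Com. FAM83D, a mitotic spindle protein, likewise went from 50.7 and 49 CPM in Veh to 37 and 39.4 in TAK and 43.5 and 42.4 in Dex, then to 82.6 and 76.9 in Com. ING1 and FAM83D had interactions of 1.55 ± 0.12 and 1.27 ± 0.10 (SE), and both counted as smaller joint falls in the sorting although the combination lay above Veh.

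CAMK2D, a calcium-dependent kinase, was lowered by TAK-981 alone and raised by the combination. It measured 26.5 and 23.9 CPM in Veh, 14.9 and 16.1 in TAK, 28.5 and 28.1 in Dex and 69.5 and 62.8 in Com, with an interaction of 1.92 ± 0.15 (SE). ETV5, an ETS factor downstream of MAPK signalling, showed a loss of the Dex effect instead of a rise. Its levels were 27.3 and 28.2 CPM in Veh, 26.4 and 26.7 in TAK, 10.8 and 10.6 in Dex and 24.8 and 26.2 in Com. The combination of ETV5 did not differ from Veh in the test (log2 difference -0.12, adjusted p = 0.147), and the interaction was 1.32 ± 0.11 (SE).

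Among genes that neither agent moved alone, ANKRD10 and NBN were called above the additive level and UCP2 and GPSM3 below it. NBN, part of the complex that senses DNA breaks, stood at 46.5 and 43.5 CPM in Veh, 48 and 37.7 in TAK, 47.6 and 45.6 in Dex and 82.8 and 78.1 in Com. UCP2, a mitochondrial carrier, stood at 85.6 and 85.6 CPM in Veh, 87.2 and 88.1 in TAK, 89.8 and 97.7 in Dex and 56.7 and 62.2 in Com. In each of these genes the Com libraries stood outside the range of the other 6.

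In another group of Dex-induced genes the rise was smaller or absent when TAK-981 was present. GRHL3, a grainyhead transcription factor, had the smallest adjusted p of any gene (3.98e-11). It measured 81.8 and 85.4 CPM in Veh, 167 and 162 in TAK, 305 and 302 in Dex and 141 and 153 in Com. Each agent raised GRHL3 by itself, yet the combination fell under both single-agent groups, where the additive level was 597 CPM, and the interaction was -2.02 ± 0.08 (SE). The gene lies at chromosome 1, 24645812 to 24690970, plus strand, in hg19.

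TCN2, the carrier of vitamin B12 in blood, behaved alike, at 60.2 and 60.9 CPM in Veh, 118 and 130 in TAK, 107 and 124 in Dex and 74.6 and 82.1 in Com, with an interaction of -1.59 ± 0.11 (SE). CX3CR1, the fractalkine receptor, went from 5.59 and 5.59 CPM in Veh to 11.1 and 7.51 in TAK and 14.4 and 15.7 in Dex, and stood at 5.57 and 5.39 in Com. The combination level of CX3CR1 did not differ from Veh in the test (adjusted p = 0.887). PCP4, a small calmodulin-binding protein, and SORL1, a sorting receptor, were raised by Dex only. PCP4 read 109 and 103 CPM in Veh, 330 and 325 in Dex and 133 and 118 in Com, and SORL1 22.2 and 21.3, 45.1 and 43.4, and 17.8 and 18.6. TAK overlapped Veh for PCP4, and their interactions were -1.42 ± 0.12 and -1.32 ± 0.11 (SE).

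NUAK1, a kinase related to AMPK, and NUDT16, a nuclear nucleotide hydrolase, kept part of the Dex rise. NUAK1 stood at 130 and 132 CPM in Veh, 153 and 156 in TAK, 442 and 467 in Dex and 238 and 257 in Com, and NUDT16 at 53.3 and 53.9, 72.2 and 77.9, 251 and 267, and 163 and 174. BCL6, a transcriptional repressor of germinal centre B cells, rose from 2.07 and 1.59 CPM in Veh to 31.7 and 28.4 in Dex. It stood at 5.08 and 4.27 in TAK and 13.3 and 16.8 in Com. Its interaction was -2.34 ± 0.23 (SE, adjusted p = 2.66e-06). HERPUD1, a component of endoplasmic reticulum degradation, belonged here too, with an interaction of -0.64 ± 0.07 (SE). KLF6, an immediate early zinc finger factor, kept none of the Dex rise, with an interaction of -0.88 ± 0.08 (SE). It read 227 and 219 CPM in Veh, 307 and 304 in Dex and 162 and 175 in Com. The combination level of KLF6 was below Veh in the test (adjusted p = 8.81e-06). Over all 796 Dex-raised genes with a negative call, the combination was called below Dex in 341.

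The reverse case, a TAK-981 rise that was smaller with Dex, included VPS26B and ACAD8, neighbours on chromosome 11. VPS26B, a subunit of the retromer sorting complex, measured 88.1 and 88.3 CPM in Veh, 375 and 399 in TAK, 88.5 and 99 in Dex and 184 and 196 in Com. ACAD8, an enzyme of valine breakdown, measured 38.5 and 37.5, 172 and 185, 36.5 and 40.2, and 88.7 and 88. Dex alone passed the test for neither, and in the combination each rise over Veh was cut by close to 1 log2 unit, with interactions of -1.11 ± 0.09 and -1.03 ± 0.10 (SE). VPS26B ends at 134117686 and ACAD8 starts at 134123434 on the same strand in hg19, and whether reads run from the first into the second was not tested.

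DDIT4L, an inhibitor of mTOR signalling, rose from 8.41 and 8.3 CPM in Veh to 69.6 and 55.6 in TAK and stood at 9.95 and 9.93 in Dex and 23.2 and 22.2 in Com, an interaction of -1.72 ± 0.16 (SE). YIPF1, a Golgi membrane protein, read 36.3 and 36.3 CPM in Veh, 155 and 158 in TAK, 57.7 and 63.1 in Dex and 108 and 108 in Com. IL2RG, the common gamma chain of cytokine receptors, read 300 and 299 CPM in Veh, 606 and 636 in TAK, 342 and 384 in Dex and 354 and 380 in Com. The Com libraries of IL2RG lay within the range of the Dex libraries, and no TAK-981 rise was called with Dex present (log2 difference of Com and Dex 0.02, adjusted p = 0.854).

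Several NF-kB targets had the same form. ICAM1, an adhesion molecule, stood at 21.8 and 20.7 CPM in Veh, 41.6 and 41.3 in TAK, 20.7 and 22.7 in Dex and 23.8 and 28 in Com, and TNFAIP3, the A20 brake on NF-kB, at 658 and 654, 834 and 834, 680 and 676, and 594 and 659. TAK-981 raised both, and with Dex present the TNFAIP3 level did not differ from Veh in the test (adjusted p = 0.306). Of the 37 tested genes of the NF-kB list, 10 (27%) were called below the additive level and none above it, with a median interaction of -0.17. Of all genes 9.48% were called below and 5.47% above. BTG2, an antiproliferative p53 target, and SGK1, a kinase known as a glucocorticoid target elsewhere, had TAK-981 rises of 0.72 and 0.65 on the log2 scale and interactions of -0.63 ± 0.08 and -0.49 ± 0.09 (SE). ITGB7, the integrin chain that pairs with alpha 4 and is highly expressed in myeloma, went from 14700 and 14800 CPM in Veh to 16400 and 18700 in TAK, 13200 and 14700 in Dex and 10200 and 10800 in Com. Its combination level lay under every other library.

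Where both agents raised a gene, most called genes fell short of the additive level but some still added up in part. TXNIP, an inhibitor of thioredoxin and of glucose uptake, rose from 726 and 615 CPM in Veh to 2320 and 2320 in TAK and 1850 and 1970 in Dex, and reached 3180 and 3220 in Com. The combination was above each single agent, at less than the additive 6620 CPM, with an interaction of -1.05 ± 0.09 (SE, adjusted p = 7.04e-07). On the linear scale the sum of the separate CPM gains predicts 3560 CPM for TXNIP, close to the 2 values seen. FBXO32, the ubiquitin ligase atrogin-1 of muscle wasting, rose from 39.4 and 33.2 CPM in Veh to 115 and 110 in TAK and 218 and 216 in Dex and stayed at 207 and 220 in Com. TAK-981 made no called difference to FBXO32 on top of Dex (log2 difference -0.02, adjusted p = 0.826). PIK3IP1, an inhibitor of PI3K, and BMF, a BH3-only killer protein, rose in part together. PIK3IP1 stood at 47.3 and 55.4, 103 and 108, 186 and 205, and 243 and 253 CPM in Veh, TAK, Dex and Com, and BMF at 205 and 235, 406 and 447, 468 and 515, and 614 and 669. Their interactions were -0.70 ± 0.11 and -0.57 ± 0.10 (SE).

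PLK2, a p53-induced kinase, measured 36.1 and 33.9, 118 and 104, 64.8 and 58.5, and 90.7 and 95 CPM in the same order, so that its combination lay under TAK. RHOB, a small GTPase, and the phosphatases DUSP5 and DUSP10, which switch off MAP kinases, did not pass the larger single-agent level in the combination either, with interactions of -0.73 ± 0.11, -0.49 ± 0.08 and -1.03 ± 0.16 (SE). The MAPK, PI3K and cytokine feedback list had 10 of 43 tested genes below the additive level (23.3%) and 3 above it (6.98%), beside 9.48% and 5.47% of all genes. The autophagy and lysosome list had 12 of 55 below (21.8%) and 4 above (7.27%), among the former the cathepsins CTSA and CTSZ with interactions of -0.44 ± 0.08 and -0.63 ± 0.12 (SE).

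Among the 93 genes with a joint fall beyond the sum were several of the cell cycle. RRM2, the regulated subunit of ribonucleotide reductase, measured 490 and 487 CPM in Veh, 149 and 180 in TAK, 233 and 280 in Dex and 37.2 and 42.1 in Com. Both Com libraries lay far under either single agent and under the additive 86.5 CPM, an interaction of -1.12 ± 0.13 (SE, adjusted p = 2.93e-05). E2F1, the factor that drives entry into S phase, stood at 67.2 and 73.9 CPM in Veh, 20.2 and 26.7 in TAK, 27.3 and 37.2 in Dex and 5.39 and 5.66 in Com. CLSPN, the checkpoint adaptor claspin, stood at 95.8 and 96.8, 32.6 and 32.6, 49.6 and 52.2, and 9.72 and 10. UHRF1, which brings DNA methylation to new strands, stood at 42.8 and 43.5, 10.4 and 13.3, 21.6 and 26.2, and 2.91 and 3.19. The interactions of E2F1, CLSPN and UHRF1 were -0.95 ± 0.22, -0.81 ± 0.10 and -1.10 ± 0.20 (SE). In bulk RNA a smaller share of cycling cells and less of these transcripts in each cycling cell cannot be told apart.

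The promoters of E2F1, CLSPN and UHRF1 are shown because these genes fell together and each holds a copy of the E2F site searched for, TTTGGCG or TTTCCCG on either strand. Each runs 5′ to 3′ on the strand of the gene, from 250 bases before to 50 after the start, from RefSeq on GRCh38.p14, with the match in capitals.
E2F1: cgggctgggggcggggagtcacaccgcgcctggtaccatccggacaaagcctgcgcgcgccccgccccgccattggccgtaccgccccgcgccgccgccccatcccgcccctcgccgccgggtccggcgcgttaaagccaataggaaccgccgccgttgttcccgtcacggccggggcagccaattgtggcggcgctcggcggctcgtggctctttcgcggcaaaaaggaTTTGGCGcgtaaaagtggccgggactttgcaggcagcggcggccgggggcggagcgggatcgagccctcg
CLSPN: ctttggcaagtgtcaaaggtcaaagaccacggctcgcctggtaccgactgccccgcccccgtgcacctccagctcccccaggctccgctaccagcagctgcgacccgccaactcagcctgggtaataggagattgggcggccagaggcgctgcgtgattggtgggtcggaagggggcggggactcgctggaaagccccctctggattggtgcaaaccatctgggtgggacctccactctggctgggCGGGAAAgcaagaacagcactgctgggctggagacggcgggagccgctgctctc
UHRF1: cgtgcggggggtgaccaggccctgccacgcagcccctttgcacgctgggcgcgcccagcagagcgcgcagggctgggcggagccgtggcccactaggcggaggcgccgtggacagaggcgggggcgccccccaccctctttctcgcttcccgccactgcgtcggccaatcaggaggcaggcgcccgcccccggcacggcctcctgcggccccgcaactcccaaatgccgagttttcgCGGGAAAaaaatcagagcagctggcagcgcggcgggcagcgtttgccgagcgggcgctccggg
The E2F site stood in 9.33% of the 10648 promoters of protein-coding genes tested that had a sequence. It stood in 31 of the 66 promoters of the DNA replication and E2F list (47.0%), which is partly the definition of that list, in 15.8% of promoters of genes with a smaller joint fall, in 11.3% of those called above the additive level and in 8.95% of those called below it. For the 93 genes with a larger joint fall the check is void, since only 78.5% of them had a promoter sequence, and no share is given. The promoter windows of RRM2, GTSE1 and TACC3 hold no copy, and that of CDC45 holds 1. A match is a description of these letters and not evidence of binding.

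FAM111B, a serine protease, went from 280 and 261 CPM in Veh to 80.9 and 74.8 in TAK, 130 and 124 in Dex and 19.8 and 19.4 in Com, with an interaction of -0.90 ± 0.09 (SE). CDC45, a part of the replicative helicase named after its values were seen, went from 31.2 and 33.7 to 10.1 and 10.2, 15.1 and 16.3, and 1.73 and 1.98, with an interaction of -1.40 ± 0.18 (SE). The mitotic genes GTSE1 and BIRC5 followed. TACC3, which only Dex lowered alone, was also called below the additive level but is not among the 93 genes. TACC3, a spindle protein, overlapped Veh in TAK, with 131 and 126 CPM in Veh, 122 and 160 in TAK, 76.4 and 86.4 in Dex and 40.9 and 42.1 in Com. GTSE1, which counters p53, and BIRC5, which encodes survivin, had interactions of -0.68 ± 0.12 and -0.60 ± 0.13 (SE), with Com at 12.6 and 14.1 CPM and at 12 and 13.3 CPM.

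As lists, both cell cycle programmes had more calls below the additive level than above it, as did all genes (9.48% below and 5.47% above). Of 82 tested G2/M and mitosis genes, 26 (31.7%) were called below the additive level and 1 (1.22%) above. Of the 82 estimates 69 were negative, with a median of -0.24 beside -0.03 for all genes. Of 80 DNA replication and E2F targets, 18 (22.5%) were called below and 8 (10%) above, both over the shares of all genes, with a median of -0.10. Each agent lowered nearly all members, with median log2 changes of -1.42 for TAK-981, -0.85 for Dex and -2.28 for both in the replication list, and of -1.17, -1.01 and -2.47 in the G2/M list. SLBP, the histone mRNA binding protein, ran against both, with 118 and 116 CPM in Veh, 282 and 296 in TAK, 75.5 and 86.3 in Dex and 107 and 107 in Com. TAK-981 raised SLBP by 1.31 on the log2 scale without Dex and by 0.40 with it. The combination did not differ from Veh in the test (adjusted p = 0.104). On the linear scale the picture of the larger joint falls turned: 58 of the 93 had a sum of CPM losses that would take them under 0, and 79 lay above the linear expectation.

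Lipid synthesis genes fell with both agents, and their joint fall was more often smaller than additive. SCD, which makes monounsaturated fatty acids, measured 876 and 882 CPM in Veh, 201 and 213 in TAK, 89.9 and 92.6 in Dex and 44.3 and 53.7 in Com. The combination was the lowest group and still above the additive 21.5 CPM, with an interaction of 1.19 ± 0.10 (SE, adjusted p = 3.9e-07). INSIG1, the sterol sensor that retains SREBP, stood at 522 and 512 CPM in Veh, 166 and 168 in TAK, 93 and 104 in Dex and 63.9 and 63.7 in Com, with an interaction of 1.00 ± 0.09 (SE). HSD17B7, a late step of cholesterol synthesis, fell with each agent but did not pass the test with both (adjusted p = 0.176), at 10.5 and 10.4 CPM in Veh, 5.71 and 6.33 in TAK, 7.83 and 6.45 in Dex and 8.92 and 9.29 in Com. Of 34 tested sterol and fatty acid genes, 15 (44.1%) were called above the additive level and 2 (5.88%) below, beside 5.47% and 9.48% of all genes. The list had a median interaction of 0.32. Its median log2 change was -0.78 with TAK-981, -1.08 with Dex and -1.5 with both.

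Many genes of amino acid supply and of the endoplasmic reticulum fell with each agent: in the ATF4 amino acid list TAK-981 lowered 28 and raised 3 of 41, and Dex lowered 26 and raised 4. In the unfolded protein response list TAK-981 lowered 24 and Dex 31 of 41, and each raised 6. In the ATF4 amino acid list 11 of 41 tested genes (26.8%) were above the additive level and 2 (4.88%) below, with a median of 0.18. Of all genes 5.47% were above and 9.48% below. SLC7A11, the cystine importer, stood at 7.19 and 11.4 CPM in Veh, 3.32 and 3.45 in TAK, 1.04 and 1.31 in Dex and 1.98 and 1.54 in Com. AARS, alanyl-tRNA synthetase, stood at 172 and 184, 99.4 and 112, 90.5 and 95.3, and 74.5 and 77.2. VLDLR, a lipoprotein receptor whose locus VLDLR-AS1 shares, turned from a fall with TAK-981 (9.49 and 13.5 CPM, against 21.8 and 18.1 in Veh) to a rise in Com (28.6 and 27.5). SEL1L and EDEM3, which clear misfolded proteins from the endoplasmic reticulum, fell with each agent and not further with both, with interactions of 0.79 ± 0.09 and 0.56 ± 0.10 (SE). The unfolded protein response list as a whole had 4 of 41 above (9.76%) and 7 below (17.1%). CALR, the chaperone calreticulin, was among the latter, with 965 and 980 CPM in Veh, 869 and 1010 in TAK, 654 and 768 in Dex and 433 and 466 in Com. In the glycolysis and hypoxia list 5 of 35 were above and none below, with a median of 0.22. The share called in that list, 14.3%, was near the 14.9% of all genes. P4HA1, a collagen prolyl hydroxylase of that list, went from 181 and 151 CPM in Veh to 82.7 and 113 in TAK, 252 and 249 in Dex and 410 and 360 in Com, an interaction of 1.39 ± 0.15 (SE).

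Where the agents moved a gene in opposite directions, the combination could match 1 of them or lie outside both. ABCA1, the cholesterol exporter, stood at 38.7 and 40.6 CPM in Veh, 67.8 and 71.2 in TAK, 15.9 and 15.8 in Dex and 65.4 and 67.8 in Com. The Dex fall of ABCA1 was absent with TAK-981 present, and the interaction was 1.26 ± 0.11 (SE). MX2, an interferon-induced restriction factor, read 7.24 and 6.51 CPM in Veh, 48.8 and 40 in TAK, 1.55 and 2.12 in Dex and 43.1 and 45 in Com, an interaction of 1.89 ± 0.26 (SE). CDKN1C, the cell cycle inhibitor p57, read 8.13 and 8.41, 11.8 and 16.6, 3.84 and 4.44, and 15.4 and 16.5. In MX2 and ABCA1 the combination did not differ from TAK in the test (adjusted p = 0.958 and 0.551), and in CDKN1C both Com libraries lay within the range of the TAK libraries.

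In PDGFB, ETS1, CSF2RB and BCL2L1 the combination went under both single agents. PDGFB, a growth factor, measured 25 and 25.8 CPM in Veh, 14.9 and 17.3 in TAK, 45 and 54 in Dex and 11.3 and 11.1 in Com, so that Dex raised it alone and lowered it with TAK-981. ETS1, a lymphoid transcription factor, stood at 79.8 and 78.6, 61.1 and 62.8, 88.1 and 94.4, and 33.8 and 37.2. CSF2RB, the common beta chain of cytokine receptors, stood at 246 and 253, 214 and 210, 364 and 349, and 172 and 178. BCL2L1, which encodes the survival protein BCL-XL, stood at 443 and 469, 569 and 617, 279 and 312, and 252 and 262. Their interactions were -1.49 ± 0.15, -1.01 ± 0.09, -0.79 ± 0.07 and -0.58 ± 0.09 (SE).

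The interferon response list split. TAK-981 alone raised it by a median of 1.09 and Dex alone moved it by 0.03, and the combination stood at 0.97. Of 75 tested genes, 9 (12%) were called above the additive level and 16 (21.3%) below, beside 5.47% and 9.48% of all genes. The median interaction of the list was -0.09. IFIT1, named after its values were seen, behaved like MX2, at 3.1 and 2.56 CPM in Veh, 40.8 and 32.9 in TAK, 0.415 and 1.51 in Dex and 44 and 40.4 in Com. Its interaction of 1.74 ± 0.46 (SE, adjusted p = 0.0222) was not called with the replicate block (adjusted p = 0.0573), nor without Dex replicate 1 (0.0749), TAK replicate 2 (0.0588) or Veh replicate 1 (0.112). GBP4, a guanylate-binding protein, lost part of its rise, at 1.93 and 2.46, 26.3 and 22.7, 3.42 and 3.08, and 13.4 and 12.9. IRF7, also named after its values were seen, and DTX3L, a ubiquitin ligase whose locus PARP9 overlaps, were raised by both agents, with interactions of -0.59 ± 0.10 and -0.63 ± 0.10 (SE). TAK-981 raised both on top of Dex, by 1.17 and 1.05 on the log2 scale, while Dex on top of TAK-981 added 0.04 to IRF7 (adjusted p = 0.665) and 0.30 to DTX3L (adjusted p = 0.00251). In MHC class I presentation 5 of 18 genes (27.8%) were below the additive level and 1 (5.56%) above, with a median of -0.29. TAP1, the peptide transporter, went from 88 and 92.1 CPM in Veh to 136 and 153 in TAK and 101 and 108 in Com, beside 96.5 and 110 in Dex. MHC class II had 2 of 14 below (14.3%) and 1 above (7.14%), near the shares of all genes. CD74, the MHC class II invariant chain, stood at 1080 and 1110 CPM in Veh, 1260 and 1200 in TAK, 505 and 507 in Dex and 389 and 443 in Com.

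**Figure D4:**
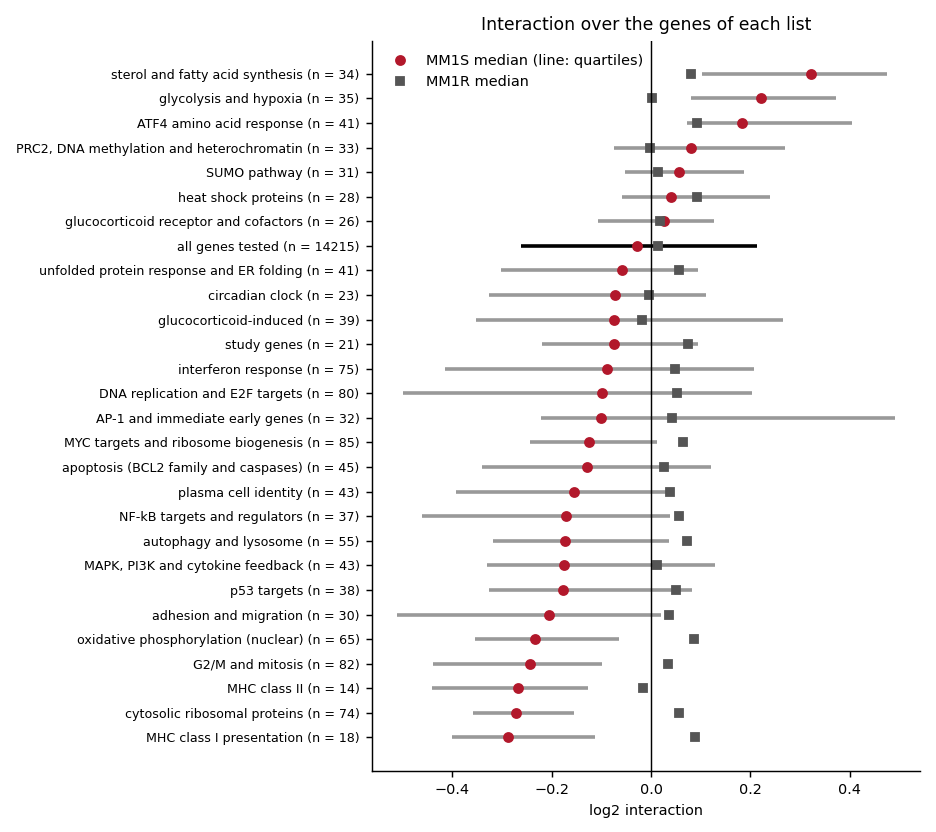
Median log2 interaction of the tested genes of each list in MM1S (red points, with lines from the first to the third quartile) and in MM1R (grey squares), with the quartile line of all genes tested in black; the short zinc list and the marker lists are left out. Sterol and fatty acid synthesis lies highest, at 0.32, and MHC class I presentation lowest, at -0.29, against -0.03 for all genes.

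The cytosolic ribosomal protein list lay below the additive level by a small amount. Of 74 tested ribosomal protein genes, 24 (32.4%) were called below the additive level, beside 9.48% of all genes, and none above, 70 of 74 estimates were negative and the median was -0.27. TAK-981 and Dex alone moved this list by medians of 0.01 and 0.08. Of 65 nuclear genes of oxidative phosphorylation, 9 (13.8%) were below and none above, beside 14.9% called in all genes, with a median of -0.23. Gene length moved with the interaction: the median was -0.12 in the 2843 shortest genes (up to 1.93 kb) and 0.07 in the 2842 longest (from 6.02 kb), and the order was the other way round in MM1R, from 0.06 to -0.05. The 2 lists have median lengths of 0.988 and 1.18 kb, and their medians relative to genes in the same of 5 length classes were -0.17 and -0.13. The part of length in these values was not tested. The MYC and ribosome biogenesis list had 9 of 85 below (10.6%) and 2 above (2.35%), shares near or under those of all genes (9.48% and 5.47%), and BYSL, a ribosome assembly factor, was at -0.63 ± 0.13 (SE).

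For comparison with the lists that follow, 9.48% of all genes were called below and 5.47% above the additive level. Of the other lists, 13 of 43 plasma cell identity genes (30.2%) were called below the additive level and 6 (14%) above, and 9 of 30 adhesion and migration genes (30%) below and 3 (10%) above. The p53 target list had 6 of 38 below (15.8%) and 2 above (5.26%), and the apoptosis list 8 of 45 below (17.8%) and 4 above (8.89%). PMAIP1, the BH3-only protein NOXA, was above, by 1.03 ± 0.26 (SE, adjusted p = 0.0122), and was named after its values were seen. The call of PMAIP1 was lost without Com replicate 1 (adjusted p = 0.0579), Dex replicate 2 (0.0666) or Veh replicate 2 (0.0645), and when only the MM1S libraries were fitted (0.0542). The PRC2, DNA methylation and heterochromatin list had 8 of 33 above and 2 below, the AP-1 list 3 of 32 in each direction, with EGR1 at 1.79 ± 0.29 (SE), and the circadian clock list 2 of 23 above and 3 below. Heat shock proteins (28 genes), glucocorticoid receptor and cofactors (26) and the SUMO pathway (31) had 2 calls above and none below each, which as shares of 7.14%, 7.69% and 6.45% were under the 14.9% of all genes. Among receptor genes NR3C2, the mineralocorticoid receptor, stood at 24.7 and 23.1 CPM in Veh, 14.9 and 18.1 in TAK, 11.7 and 11 in Dex and 17.7 and 15.3 in Com. The zinc and metallothionein list had 1 of 8 below. The marker lists gave 2 calls above in 5 tested stromal and epithelial genes and none in the 3 T and NK, 3 myeloid and 2 erythroid and platelet genes, and the 21 genes that the study itself followed gave 4 below and 1 above.

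Not all genes of the glucocorticoid-induced list departed. Dex alone raised 27 of its 39 tested genes in MM1S and lowered 4, so the list is not a list of genes that Dex induced here. Of the 39, 12 (30.8%) were called below the additive level, 7 (17.9%) above it and 20 in neither direction. Of all genes 9.48% were called below and 5.47% above. The median of the list was -0.07. TSC22D3, which encodes GILZ and mediates anti-inflammatory effects, stood at 38.3 and 44.4 CPM in Veh, 49.7 and 58.3 in TAK, 501 and 584 in Dex and 632 and 662 in Com. The additive level for TSC22D3 was 708 CPM and the interaction -0.13 ± 0.12 (SE, adjusted p = 0.51), within the spread of the libraries. DDIT4, an mTOR inhibitor strongly induced by glucocorticoids, read 40.2 and 38.6, 33.6 and 61.5, 721 and 837, and 1380 and 1440, with 0.59 ± 0.27 (SE, adjusted p = 0.176). The TAK libraries of DDIT4 lay far apart, and without TAK replicate 2 its interaction was 1.09 (adjusted p = 2.98e-06). The glucocorticoid-induced list therefore held genes above, below and close to the additive level.

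The effect of TAK-981 was also read with and without Dex over a set of genes chosen in the other line. In 7592 genes that TAK-981 changed in MM1R, signed by the direction there, the median log2 change in MM1S was 0.42 without Dex and 0.37 with it, in comparisons that share no library. For genes that rose in MM1R the medians were 0.46 and 0.38, and for genes that fell 0.38 and 0.37. Single genes went either way, and the effect was smaller with Dex in 52.8% of them. On the CPM scale the sign of the departure was opposite to that on the log2 scale in 91 of the 2125 called genes (4.28%), 86 of them called below the additive level.

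In MM1R the same contrast gave 0 calls (0%) at adjusted p under 0.05 by edgeR, with 400 genes at an unadjusted p under 0.05, against 4167 in MM1S, and DESeq2 and limma-voom gave 0 calls as well. Genes called in MM1S had a median absolute interaction of 0.0879 in MM1R, beside 0.102 over all genes there. The difference between the lines itself passed the test in 961 genes (6.76%), 330 higher and 631 lower in MM1S, and in 924 of the 2125 genes called in MM1S (43.5%). The count was 2621 with the replicate block. Leaving out 1 library gave from 440 (without MM1S Veh replicate 1 or MM1R Dex replicate 1) to 2694 genes (without MM1S TAK replicate 1), and moved the count by over 1.5 times for every library but MM1R Dex replicate 2, MM1S Com replicate 2 and MM1S TAK replicate 2. FKBP5 had an interaction of -0.02 ± 0.09 (SE) in MM1R, where Dex changed it by 0.02, and GRHL3 had 0.10 ± 0.09. The paper describes the glucocorticoid receptor as absent in MM1R. It also reports synergy of TAK-981 and Dex on the viability of MM1R cells, a measure other than RNA. The 0 calls concern RNA levels after 48 h and do not show how the agents combine in a line with the receptor. Why there were no calls was not tested.

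**Figure D5:**
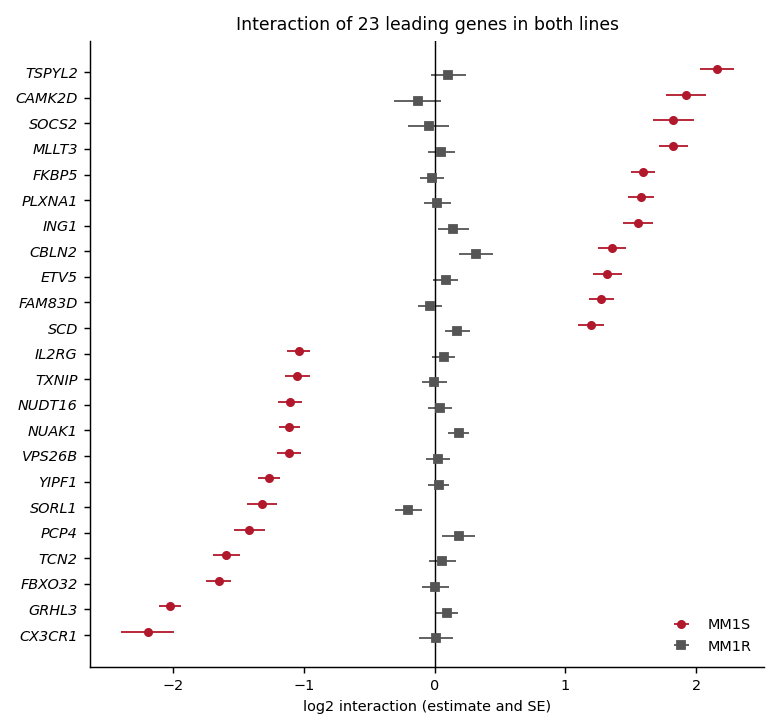
Log2 interaction with its SE of 23 leading genes, 11 above and 12 below the additive level, in MM1S (red circles) and MM1R (grey squares). The MM1S estimates range from -2.19 for CX3CR1 to 2.16 for TSPYL2, and the MM1R estimates lie between -0.20 for SORL1 and 0.32 for CBLN2.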

How the data were processed

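RNA of MM1S and MM1R cells was sequenced as total RNA after ribosomal RNA removal. Per the submitters' processing notes, bcl2fastq 2.18.0.12, STAR 2.6.0, HTSeq 0.6.0, edgeR 3.28.1 and build hg19 were used; the annotation and the strand setting of the counting are not given in the sources used here, so overlapping genes cannot be told apart. The deposited values are raw gene counts, which the authors made per library without normalization, and all 16 columns were used (unused per-sample columns: 0).

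From these counts, genes were kept by filterByExpr, scaled by TMM and fitted in R 4.3.3 with edgeR 4.0.16 (glmQLFit robust, 1 term per group, all 16 libraries, 8 residual degrees of freedom). The contrast was (Com - Dex) - (TAK - Veh) by a quasi-likelihood F test. P-values were adjusted by Benjamini-Hochberg over the 14215 genes fitted, with 0.05 as the threshold for a call. CPM values are TMM-scaled. Alternatives were RLE scaling, library size only, other filters, DESeq2 1.42.0, limma-voom (limma 3.58.1), MM1S libraries only and each library left out. Samples with the same replicate number deviated together in all 6 pairs of MM1S groups (correlation 0.146 to 0.616), so the replicate block is given where it changes a call or a count.

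Named were the 12 genes above and the 12 below the additive level of smallest adjusted p, restricted to sizes of 1 log2 unit or more, mean log2 CPM not under 3 and 1 sign for every choice of libraries, up to 3 called genes of smallest adjusted p per list and per class, and the glucocorticoid, SUMO and study genes. The members and lists were chosen with earlier results of these data known. Some genes that this rule names are not reported here.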

Additional observations from a re-analysis of the deposited data

Results flagged for a closer look

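The interaction differed between MM1S and MM1R in 961 genes by the test of the difference itself (edgeR quasi-likelihood), and in each of the 23 leading genes reported here. MM1S minus MM1R, in log2 units, was 2.05 for TSPYL2, 2.05 for CAMK2D, 1.87 for SOCS2, 1.77 for MLLT3, 1.61 for FKBP5, 1.56 for PLXNA1, 1.41 for ING1, 1.31 for FAM83D, 1.24 for ETV5, 1.04 for CBLN2 and 1.02 for SCD. It was -2.2 for CX3CR1, -2.12 for GRHL3, -1.66 for FBXO32, -1.65 for TCN2, -1.6 for PCP4, -1.3 for YIPF1, -1.29 for NUAK1, -1.14 for NUDT16, -1.14 for VPS26B, -1.12 for SORL1, -1.1 for IL2RG and -1.05 for TXNIP. These genes were chosen for their MM1S interaction, which enters the difference, so the sizes are descriptions.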

How the results depend on the processing

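Of the 85 called genes named in the text, 83 kept direction and call under every alternative, and IFIT1 and PMAIP1 were the exceptions. The naming rule favoured small adjusted p-values, and for the leading genes 1 sign for every choice of libraries. The stability of the named genes is therefore partly built in and does not stand for all calls. The replicate block changed no other named call than that of IFIT1. It raised the MM1S count to 3579, with 2122 of the 2125 calls shared, and the difference between lines to 2621. Requiring an interaction of at least 1 gave 259 and 220 genes. Fitting MM1S libraries only gave 779 (fewer residual degrees of freedom), with 778 of the 2125 calls shared. With no filter on low counts 1734 genes differed between lines and 19 were called in MM1R. Leaving out 1 library gave 1044 to 3724 calls in MM1S, 0 to 1 in MM1R and 440 to 2694 differences between lines. With library size only the median interaction of all genes was 0.0419, that of the MYC and ribosome biogenesis list -0.0528 and that of the PRC2 list 0.152, and 53.2% of calls were above the additive level, against 36.6% with TMM and 38.7% with RLE. Over left-out libraries the list medians ran from -0.325 to -0.227 for G2/M, -0.178 to -0.0601 for MYC and ribosome biogenesis, 0.0608 to 0.154 for PRC2 and 1.02 to 1.7 for stromal and epithelial markers. In genes changed by at least 1 log2 unit in MM1R, the TAK-981 effect was 1.13 without and 1.07 with Dex. Requiring 0.5 log2 units of each single-agent change left 365 smaller joint changes and 60 opposite changes and put 902 called genes in the class that neither agent moved. Except where a smaller test set shows it, the cause of these shifts was not tested. Duplicates limit the precision, with a median standard error of 0.15, and genes under a few CPM are the least certain.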
